A study of Caenorhabditis elegans
Pristionchus pacificus with 6 samples.

Results

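The genes described here are 9 regulators of the G1/S step of the cell cycle in Caenorhabditis elegans, taken by their gene identifiers from a table of 73268 genes of 2 nematodes, in which the last 26310 were taken as those of Pristionchus pacificus. They are the cyclins cyd-1 (WBGene00000870), cye-1 (WBGene00000871) and cya-1 (WBGene00000863), the kinase cdk-4 (WBGene00000406), the kinase inhibitors cki-1 (WBGene00000516) and cki-2 (WBGene00000517), the retinoblastoma homologue lin-35 (WBGene00003020), and the transcription factor subunits efl-1 (WBGene00001161) and dpl-1 (WBGene00001061). RNA came from dissected anterior intestines of adult hermaphrodites, collected 72 hours after egg lay at 20 °C. Control worms carried cdk-2::ZF::GFP, a tagged copy of the kinase gene cdk-2, and zif-1(gk117), a mutation in the gene of a degradation adaptor. CDK-2gut(-) worms carried both of these and asp-1p::vhhGFP4::zif-1, in which the asp-1 promoter drives a GFP-binding nanobody joined to ZIF-1, so that the control differs from them by this transgene alone as far as the labels say. There were 3 libraries per strain, from pooled lysates, and all 6 also held lysate of P. pacificus intestines, collected at 96 hours, as a spike-in. The design text describes the CDK-2gut(-) intestine as one of reduced ploidy.

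Intestinal cells of C. elegans become polyploid by endocycles, rounds of DNA replication without division, which occur during larval growth. In the usual account of G1/S control, cyclin D with CDK-4 phosphorylates the retinoblastoma protein, which releases E2F factors from repression, and cyclin E with CDK-2 then starts replication. Inhibitors of the CKI family bind these cyclin and kinase complexes and block them. In the CDK-2gut(-) strain the transgene acts on the tagged CDK-2 protein, and none of the 9 genes is itself engineered.

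The libraries held 9432973 to 15874554 C. elegans counts, and 1761793 to 4060591 P. pacificus counts. The CDK-2gut(-) libraries were the deeper ones for C. elegans. The regulators took few of these counts, from 0 to 237 per gene and library, so counting error is large for most of them. Values below are counts per 1000000 C. elegans counts (CPM). They were not compared between genes, because no transcript lengths were used here. In bulk tissue, fewer cells of a type and less RNA per cell cannot be told apart. The identifiers were not paired with symbols for other genes, so intestinal markers, markers of carried-over tissue such as germline, cdk-2 itself and the further genes of the pathway were not analysed here, and their part in these results was not tested. Nothing in the labels ties the libraries of a strain to separate cultures, and p-values therefore rest on a spread that could be technical.

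None of the regulators that could be tested was called changed between the strains. Of the 9, 7 passed the filter on low counts and entered the fits, and 0 of 7 were called in either direction, with the C. elegans rows scaled to their own composition or to the spike-in (quasi-likelihood test of edgeR over 8309 genes, adjusted p under 0.05 after Benjamini and Hochberg). In both scalings 1 of the 7, cyd-1, had an unadjusted p under 0.05 (edgeR), and DESeq2 called 0 as well. The share of all genes under that unadjusted bound was not computed, but it is at least the share called after adjustment, given next. Since cyd-1 entered the test through CDK-2gut(-) alone, this count is no result about the 7. Over all 8309 genes, edgeR called 11.8% higher and 6.84% lower in composition, and 16.4% higher and 2.47% lower against the spike-in. DESeq2 called 11% higher and 9.86% lower in composition, and 21.1% and 2.98% against the spike-in. In plain CPM the strains did not overlap for 3 of the 9 regulators, all higher in CDK-2gut(-), where 23.4% of the 17070 genes with a count were separated in this direction. Those 17070 include many genes with very few counts. Among the 8309 genes that passed the filter the share was 39%, beside 2 of the 7 regulators, so these separations are no result about the regulators. The mean CPM ran from 6.81 times control for cyd-1 to 0.587 times for cki-1.

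**Figure D1:**
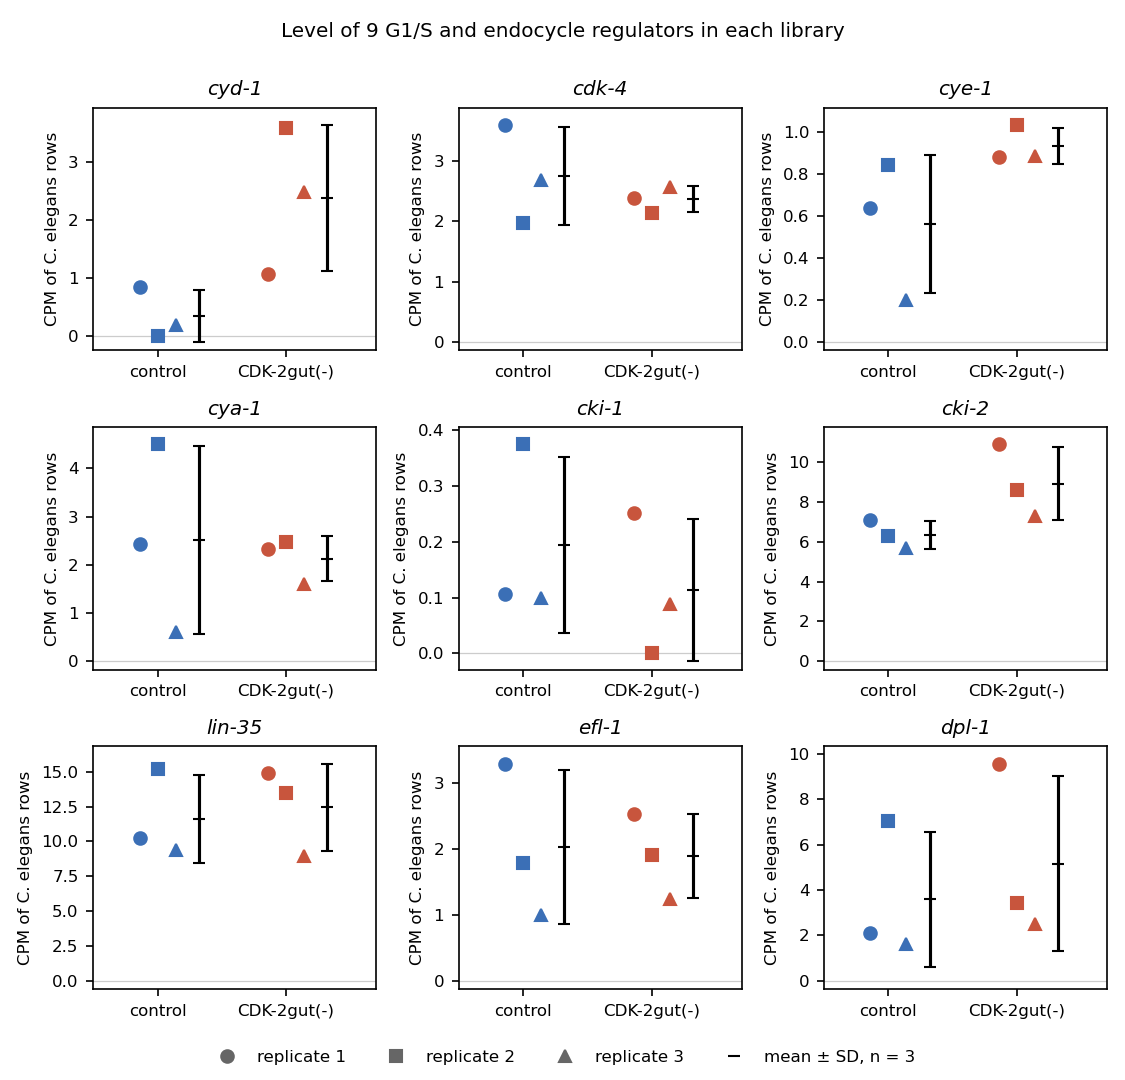
Level of each regulator in each library, in CPM of the C. elegans rows on linear axes that differ between panels, with symbols for replicates 1 to 3 and black bars for the mean ± SD (n = 3). The strains do not overlap for cyd-1, cye-1 and cki-2, and they overlap for the other 6 genes.

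The D-type cyclin cyd-1, which activates CDK-4 at the start of the cycle, had the highest ratio between strains of the 9. It had 8, 0 and 2 counts in control replicates 1, 2 and 3, or 0.848, 0 and 0.199 CPM. In CDK-2gut(-) it had 17, 45 and 28 counts, or 1.07, 3.58 and 2.48 CPM. Each CDK-2gut(-) library thus exceeded each control, although CDK-2gut(-) replicate 1 stood close to control replicate 1. After composition scaling these libraries changed places, at 0.847 and 1.00 normalised CPM, and the strains overlapped. Per 1000000 P. pacificus counts, after scaling, cyd-1 stood at 3.99, 0 and 0.677 in control and at 4.96, 14.9 and 9.02 in CDK-2gut(-), again without overlap. The 0 of control replicate 2 allows a level of up to 0.281 CPM, from 3 counts of that library. The means were 0.349 ± 0.443 CPM in control and 2.38 ± 1.26 in CDK-2gut(-) (SD, n = 3), a ratio of 6.81. The difference in CPM had a two-sided exact permutation p of 0.1, the smallest that 3 libraries against 3 allow. Any gene whose strains do not overlap gets this value, so it adds nothing to the separation. In composition-scaled values the same test gave 0.2 for cyd-1.

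In the composition fit the log2 fold of cyd-1 was 2.35 ± 1.02 (SE), with a 95% interval from 0.020 to 4.69 and an edgeR adjusted p of 0.160. Against the spike-in it was 2.70 ± 1.06 (SE; edgeR adjusted p = 0.118). cyd-1 passed the filter through CDK-2gut(-) alone, where 3 of 3 libraries reached the minimum of 0.912 CPM, against 0 of 3 in control. With controls this low, its entry into the test depended on high values in every CDK-2gut(-) library. Without the filter, over 17070 genes, cyd-1 was called higher in both scalings (edgeR adjusted p = 0.0275 in composition and 0.0256 against the spike-in), where 7.08% and 9.63% of genes were called higher. Its composition log2 fold was again 2.35 there, but with an SE of 0.786 in place of 1.02. Against the spike-in it was called without control replicate 1, at a log2 fold of 4.63 (edgeR adjusted p = 0.0444, with 12.7% of genes called higher). That library is the control with most of its counts, and the remaining controls had 0 and 2, so a higher fold was built in. With any other single library left out, cyd-1 was not called against the spike-in (edgeR adjusted p from 0.148 to 0.373). Without control replicate 2, which had 0 counts, the composition log2 fold was 1.59, and without control replicate 1 it was 3.96.

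**Figure D2:**
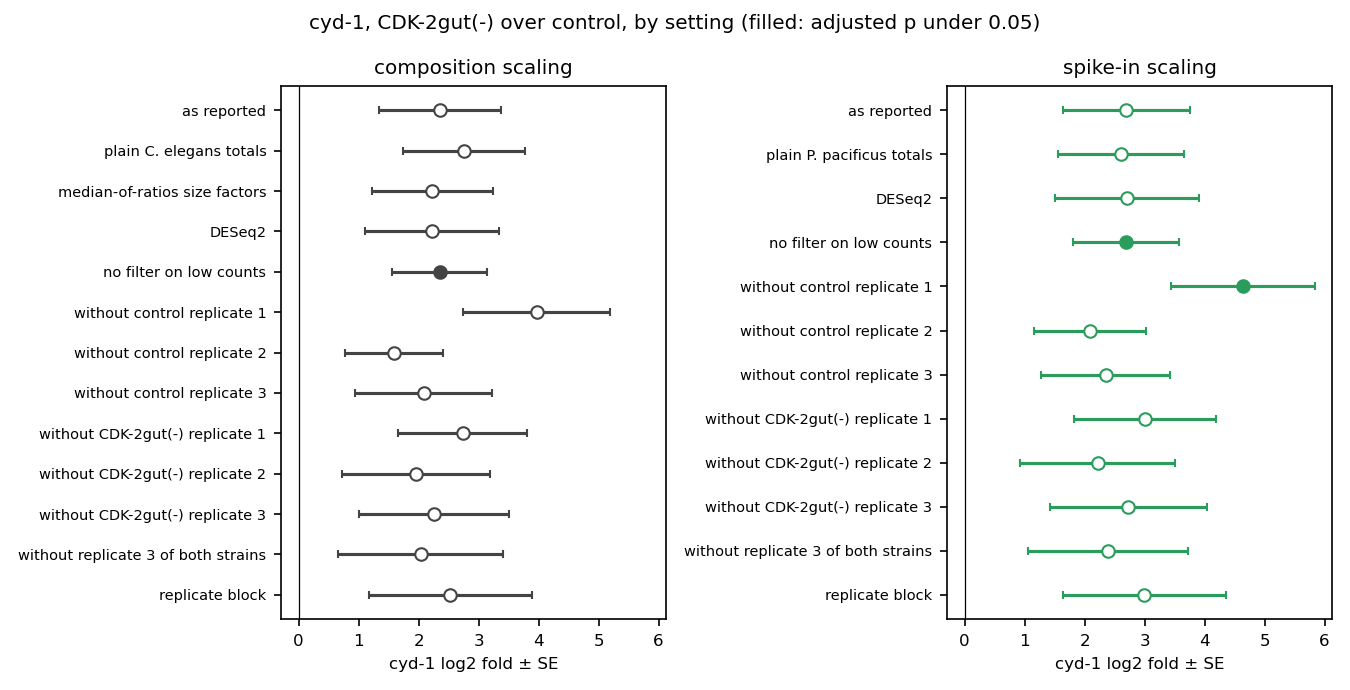
Log2 fold of cyd-1, CDK-2gut(-) over control, with its standard error (bars) under each setting, scaled to composition (left) or to the spike-in (right). All estimates lie above 0, from 1.59 to 4.63, and only the filled points had an adjusted p under 0.05.

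Transcript of the kinase partner of cyclin D, cdk-4, stood at 3.60, 1.97 and 2.69 CPM in control and at 2.39, 2.15 and 2.57 CPM in CDK-2gut(-) replicates 1 to 3, and all CDK-2gut(-) values lay within the control range. The log2 fold was -0.64 ± 0.42 (SE) in composition (edgeR adjusted p = 0.379) and -0.20 ± 0.51 (SE) against the spike-in (edgeR adjusted p = 0.837). The 95% interval in composition, from -1.61 to 0.33, leaves room for a fall to 0.328 times control or a rise to 1.26 times. Set against each other within a library, where no scaling enters, cyd-1 made up 19.05%, 0% and 6.90% of the summed cyd-1 and cdk-4 counts in control. In CDK-2gut(-) it made up 30.9%, 62.5% and 49.1%. The means were 8.65 ± 9.64% and 47.5 ± 15.9% (SD, n = 3). This pair and the other pairs below were chosen after their values were seen and get no test, and the share restates the cyd-1 counts given above rather than adding to them. In control replicate 1 the 95% Clopper-Pearson interval was 8.60% to 34.1%, and in CDK-2gut(-) replicate 1 it was 19.1% to 44.8%, so these libraries overlap within counting error. A share of counts depends on transcript length and is not a share of molecules.

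Cyclin E, the partner of CDK-2, was too rare for the filter. Counts of cye-1 were 6, 9 and 2 in control and 14, 13 and 10 in CDK-2gut(-). In CPM this was 0.636, 0.844 and 0.199 against 0.882, 1.03 and 0.887, without overlap but with control replicate 2 just below the lowest CDK-2gut(-) library. It fell short of the filter narrowly, since the filter needs 3 libraries at 0.912 CPM and only CDK-2gut(-) replicate 2 reached it. The mean ratio was 1.67, from 0.560 ± 0.329 to 0.934 ± 0.086 CPM (SD, n = 3; two-sided exact permutation test, p = 0.1). The separation went with plain totals: the strains overlapped for cye-1 after composition or spike-in scaling (two-sided exact permutation test, p = 0.6 and 0.2). In the fit without the filter the log2 fold was 0.36 ± 0.95 (SE; edgeR adjusted p = 0.857), and the 95% interval ran from 0.353 to 4.67 times control. That fit gave cye-1 and cki-1 more degrees of freedom, so their intervals are narrower for a given SE than those of the filtered genes.

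Cyclin A, which acts in S phase and on the way to mitosis, varied more between control libraries than between strains. Transcript of cya-1 stood at 2.44, 4.50 and 0.598 CPM in control and at 2.33, 2.47 and 1.60 CPM in CDK-2gut(-). The highest and the lowest of the 6 values were both controls, replicates 2 and 3. The log2 fold was -0.59 ± 0.61 (SE) in composition (edgeR adjusted p = 0.596) and -0.22 ± 0.74 (SE) against the spike-in (edgeR adjusted p = 0.879). As a share of summed cya-1 and cye-1 counts, cya-1 held 79.3%, 84.2% and 75.0% in control and 72.5%, 70.5% and 64.3% in CDK-2gut(-). These shares did not overlap, but that of control replicate 3 rests on 8 counts, with a 95% Clopper-Pearson interval from 34.9% to 96.8%. How often the shares of other gene pairs separate was not computed, so the separation here and for cyd-1 with cdk-4 is a description only.

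The inhibitors cki-1 and cki-2 are neighbouring members of the CIP/KIP family, with 8 non-coding genes and 0 protein-coding genes between them in the RefSeq table of assembly WBcel235. The inhibitor cki-1, which links developmental signals to G1 arrest, was at the limit of detection, with 1, 4 and 1 counts in control and 4, 0 and 1 in CDK-2gut(-). The 6 control and 5 CDK-2gut(-) counts in all gave 0.199 CPM (95% Poisson interval 0.0731 to 0.433) and 0.126 CPM (0.0409 to 0.294), intervals that cover counting error only and overlap. In CDK-2gut(-) replicate 2 the 0 allows up to 0.239 CPM. In the composition fit without the filter, the 95% interval ran from 0.0396 to 5.78 times control, so the fit could not tell apart folds within these bounds.

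Transcript of cki-2 was counted more deeply, with 57 to 173 counts per library. It stood at 7.10, 6.28 and 5.68 CPM in control and at 10.9, 8.59 and 7.27 CPM in CDK-2gut(-), so all CDK-2gut(-) libraries were higher, the lowest of them only slightly above control replicate 1. The means were 6.35 ± 0.716 and 8.92 ± 1.83 CPM (SD, n = 3), a ratio of 1.40 (two-sided exact permutation test, p = 0.1). The difference was close to that of the median gene. With plain totals the log2 fold of cki-2 was 0.49 and the median over 8309 genes was 0.51. In composition both were near 0, at 0.064 ± 0.24 (SE) for cki-2 (edgeR adjusted p = 0.903) and 0.10 for the median gene. Against the spike-in they were 0.54 ± 0.39 (SE) for cki-2 (edgeR adjusted p = 0.387) and 0.55 for the median gene. The 95% interval in composition, 0.718 to 1.52 times control, and that of lin-35, 0.560 to 1.17 times, were the narrowest of the 9 genes. The share of cki-2 in the summed counts of cki-2 and cye-1 was 92.2 ± 4.24% in control and 90.3 ± 1.92% in CDK-2gut(-) (SD, n = 3).

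**Figure D3:**
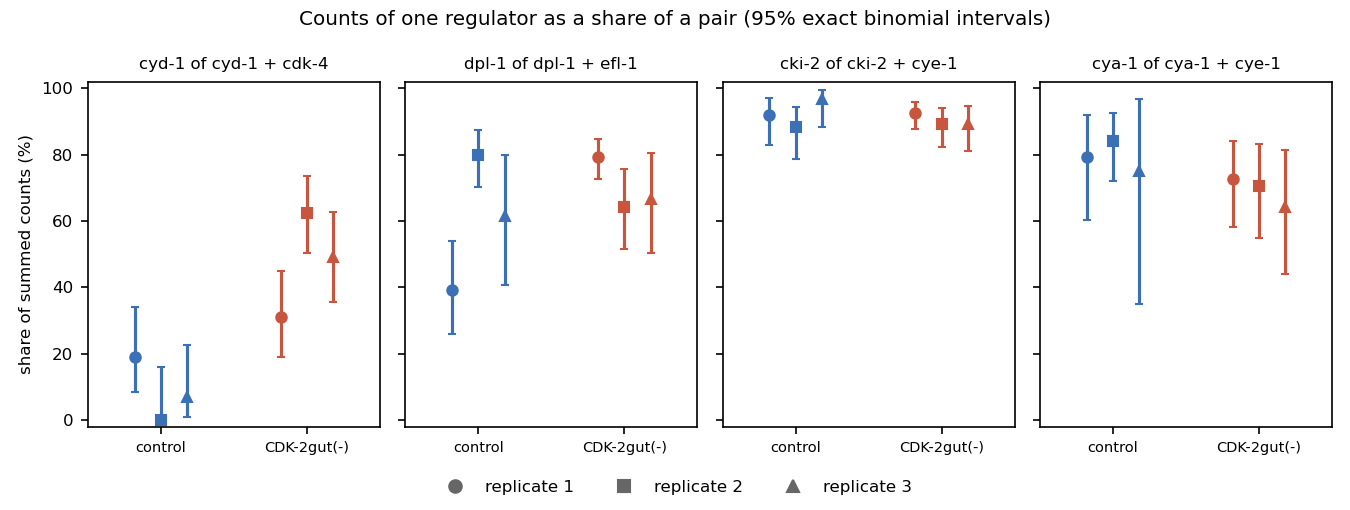
Counts of one regulator as a percentage of the summed counts of a pair, in each library, with 95% Clopper-Pearson intervals (bars, counting error only). For cyd-1 with cdk-4 the control shares reach 19.05% and the CDK-2gut(-) shares start at 30.9%, and for cki-2 with cye-1 the CDK-2gut(-) shares, 89.1% to 92.5%, lie within the control range of 88.2% to 96.6%.

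The retinoblastoma homologue lin-35, a repressor of G1/S genes and a partner of E2F factors, had the most counts of the 9, from 94 to 237 per library. It stood at 10.3, 15.2 and 9.36 CPM in control and at 14.9, 13.5 and 8.96 CPM in CDK-2gut(-), so that the strains overlapped. After composition scaling the picture turned, to 12.2, 15.6 and 11.8 normalised CPM in control and 11.8, 11.7 and 8.53 in CDK-2gut(-). Here each CDK-2gut(-) library was lower than each control, where 14.3% of the 8309 genes were separated in this direction. Control replicate 3 and CDK-2gut(-) replicate 1 stood at nearly the same value. The two-sided exact permutation p was 0.1, which any separated gene gets. Against the spike-in the strains overlapped, and the same test gave 0.7. The log2 fold was -0.30 ± 0.23 (SE; edgeR adjusted p = 0.452) in composition, 0.17 ± 0.39 (SE; edgeR adjusted p = 0.808) against the spike-in and 0.10 with plain totals. Relative to the median gene it was -0.41 in composition and -0.38 against the spike-in.

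The E2F homologue efl-1 and its dimer partner dpl-1, which bind DNA together, did not differ detectably between strains. efl-1 stood at 3.29, 1.78 and 0.996 CPM in control and at 2.52, 1.91 and 1.24 CPM in CDK-2gut(-), within the control range. Its log2 fold was -0.52 ± 0.54 (SE; edgeR adjusted p = 0.605) in composition and -0.084 ± 0.69 (SE; edgeR adjusted p = 0.9503) against the spike-in. dpl-1 varied widely, at 2.12, 7.03 and 1.59 CPM in control and 9.58, 3.42 and 2.48 CPM in CDK-2gut(-). A single library stood well above the others in each strain, control replicate 2 and CDK-2gut(-) replicate 1. Its log2 fold was 0.13 ± 0.62 (SE; edgeR adjusted p = 0.921) in composition and 0.64 ± 0.77 (SE; edgeR adjusted p = 0.621) against the spike-in. Without CDK-2gut(-) replicate 1 the composition estimate was -0.56, and without control replicate 2 it was 0.80. As a share of summed dpl-1 and efl-1 counts, dpl-1 held 60.2 ± 20.3% in control and 70.0 ± 8.03% in CDK-2gut(-) (SD, n = 3). In the RefSeq table dpl-1 overlaps the protein-coding gene T23G7.2, lin-35 overlaps C32F10.4 and hmg-3, and cya-1 overlaps dos-1. Whether counting used strand is not stated, so reads of these genes and their overlapping partners may not have been told apart.

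**Figure D4:**
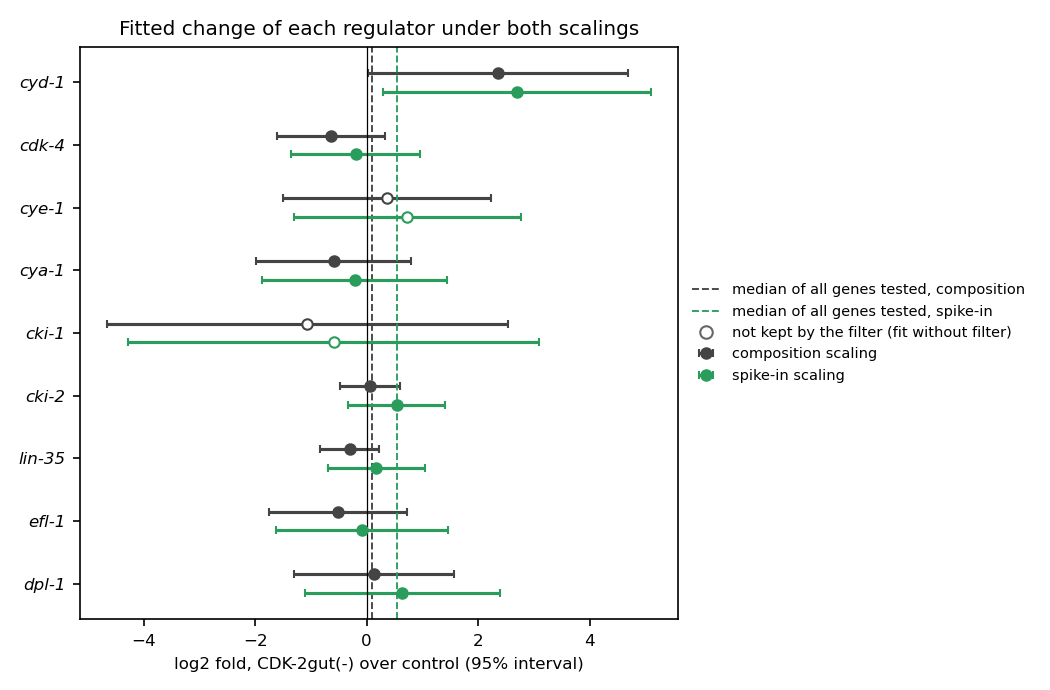
Fitted log2 fold of each regulator, CDK-2gut(-) over control, with 95% intervals (bars) in the composition fit and the spike-in fit, and dashed lines for the median of all genes tested in each (0.10 and 0.55). Only the intervals of cyd-1 lie above 0, from 0.020 in composition and 0.29 against the spike-in. These intervals are not adjusted for the number of genes, and the edgeR adjusted p of cyd-1 was 0.160 and 0.118. cyd-1 passed the filter through CDK-2gut(-) alone, where it is high, so its intervals are no separate support for a difference. Open symbols mark cye-1 and cki-1, which did not pass the filter and whose intervals, from the fit without it, are narrower for a given SE.

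Among the 7 regulators that were tested, the median log2 fold was -0.30 in composition and 0.17 against the spike-in, beside 0.10 and 0.55 over all 8309 genes. Composition scaling left 3 of the 7 above 0, and spike-in scaling left 4, while 55.9% and 79.0% of all genes were above 0. The scalings differ by a shift of 0.45 in the median, and the sign of lin-35 changed with it. Strains were separated without overlap, higher in CDK-2gut(-), for 2 of the 7 in CPM (cyd-1 and cki-2), where 39% of all genes were, for 0 of the 7 in composition-scaled values, where 24.1% were, and for 1 (cyd-1) against the spike-in, where 34.3% were. Since cyd-1 passed the filter only through CDK-2gut(-), these counts describe the genes tested and not all 9.

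The spread between libraries of a strain exceeded counting error for most of the genes. For dpl-1 the coefficient of variation was 83.7% in control and 74.7% in CDK-2gut(-), where counting alone gives 16.5% and 11.7%. For lin-35 it was 26.98% and 25.0%, against 9.23% and 7.76% from counting. For cki-2 in control it was 11.3%, at the 12.5% that counting gives, and in CDK-2gut(-) it was 20.6% against 9.18%. For cdk-4 it was 29.8% against 19.2% in control and 9.01% against 18.05% in CDK-2gut(-). For cye-1 it was 58.8% against 42.1% in control and 9.23% against 28.8% in CDK-2gut(-). With 3 libraries per strain, a spread close to counting error cannot be told from it.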

How the data were processed

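RNA-seq counts for 6 libraries (3 control, 3 CDK-2gut(-)) were used as the authors deposited them, as raw whole-number counts per gene for both species in 1 table. The submitters' processing notes name the aligner STAR and the counter featureCounts. No source used here gives versions, builds, annotation or strand setting, and by its name the table omits multi-mapping reads. The table does not mark species. The last 26310 rows were taken as P. pacificus and those before them as C. elegans, a boundary inferred earlier from these counts. Between same-numbered libraries, log2 ratios had a robust SD of 0.77 to 0.91 in the first block and 0.27 to 0.29 in the second. Symbols of the 9 genes came with their identifiers, and the RefSeq gene table (WBcel235) holds 0 such identifiers, so the further gene and marker lists were not used.

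CPM used plain C. elegans totals. Genes kept by edgeR's filterByExpr (8309) were tested with robust quasi-likelihood fits (edgeR 4.0.16, R 4.3.3), scaled by TMM factors over C. elegans genes (composition) or by the P. pacificus total of each library and its TMM factor over genes of that species (spike-in). Standard errors are the log2 fold over the square root of F. Genes that failed the filter were taken from the fit of 17070 genes without it. The fits were tested on simulated data, with large changes only, 1 dispersion for all C. elegans genes and a constant ratio of C. elegans to spike-in counts. In the real control libraries the coefficient of variation ran from 11.3% for cki-2 to 127% for cyd-1. The simulation therefore could not check the fits for regulators of such unlike spread, or for small changes. The real ratio ran from 2.78 to 5.35, so the simulation could not check the spike-in scaling under that variation. DESeq2 1.42.0, other scalings, thresholds and left-out libraries were alternatives. Poisson intervals, Clopper-Pearson intervals and floors cover counting error only. Intervals of the fits were built from the standard errors of those fits instead. All 9 genes were named by rule, and the pairs compared as shares were chosen after their values were seen. The members and lists were chosen with earlier results of these data known.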

Additional observations from a re-analysis of the deposited data

How the results depend on the processing

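The count of regulators called lower was 0 under all alternatives run, and the count called higher changed from 0 to 1 under 3 of them, by cyd-1 each time: without the filter on low counts it was 1 in composition and 1 against the spike-in, and without single libraries it ranged from 0 to 1 against the spike-in and was 0 in composition. The cause was not tested. The log2 fold of cyd-1 ranged from 1.59 to 3.96 in composition (edgeR or DESeq2 adjusted p from 0.0275 to 0.440) and from 2.09 to 4.63 against the spike-in (adjusted p from 0.0256 to 0.373). Of 243 log2 folds over the alternatives, 21 took the opposite sign, all of genes not called. The 243 include the thresholds of 0.01 and 0.1, which repeat the main estimates and cannot change a sign. For cye-1 and cki-1 the fit without the filter is also the main one. The share of opposite signs among true refits is therefore higher. In composition, cye-1 was -0.030 without replicate 3 of both strains, cki-2 was -0.078 with size factors by median of ratios, -0.073 with DESeq2 itself, and lin-35 was 0.10 with plain totals, which move the median gene by 0.40. When single libraries were left out, composition values ranged from -0.026 to 0.56 for cye-1, -0.17 to 0.13 for cki-2 and -0.56 to 0.80 for dpl-1. Spike-in values then ranged from -0.71 to 0.44 for cya-1, -0.40 to 0.21 for cdk-4, -1.99 to 0.27 for cki-1, -0.075 to 0.42 for lin-35, -0.46 to 0.63 for efl-1 and -0.31 to 1.57 for dpl-1.

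The main fits took no pairs of libraries, because the study methods do not state any. Same-numbered libraries correlated at 0.073, -0.039 and 0.23 in their deviations from the group means, and 2 of 6 libraries correlated best with their own number. The ratio of C. elegans to spike-in counts, however, was close within each number. That likeness enters the spike-in scaling, and neither the main spike-in fit nor the permutation tests of spike-in values have a term for it. With the replicate number as a block, 0 of the 7 tested regulators were called in either scaling. edgeR then called 10.2% of the 8309 genes higher and 5.89% lower in composition, and 21% and 2.9% against the spike-in. Without the block the spike-in shares were 16.4% and 2.47%. In the spike-in fit, the SE of cyd-1 was larger with the block (1.36, against 1.06 without). That of every other tested regulator was smaller, as for lin-35 (0.245 against 0.386) and cki-2 (0.254 against 0.386). Against the spike-in, the block gave 0.11 for cya-1 and 0.039 for efl-1.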

Other observations

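For 5 of the 7 tested regulators (cya-1, cki-2, lin-35, efl-1 and dpl-1) the lowest CPM of both strains was in replicate 3. The same held for 31.4% of the 8309 genes, against 6.55% for replicate 1 and 5.99% for replicate 2. The ratio of C. elegans to P. pacificus counts was close between the strains within each replicate number, at 5.35 in control and 5.19 in CDK-2gut(-) for number 1, 4.51 and 4.61 for number 2, and 2.78 and 2.78 for number 3, the lowest. The pattern was noticed in these values, and what the replicate 3 libraries share was not tested.

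By the rule fixed for likeness, the genes whose log2(CPM + 0.5) was most like that of cye-1 over the 6 libraries, among 3556 with a mean of at least 100 counts, were WBGene00002074 (Pearson r = 0.998) and WBGene00000567 (r = 0.990). With 9.0 counts of cye-1 per library on average, so many genes and so few libraries, these values are a description only.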
